A study of Rattus norvegicus with 10 samples.

Results

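The mitosis genes described here are a list of 39 genes whose products drive entry into mitosis, build the spindle, join chromosomes to it, end mitosis or split the cell. Each was read from the brightest probe set that the platform annotation gives to that gene alone, which found 36 of the 39 among 14217 genes named on the array. Tpx2, Ndc80 and Anln were not analysed here, the last because its probe set is listed with a second gene. All 36 had a mean signal over the 10 arrays above the filter on dim probe sets, a log2 level of 5.17, and so were among the 10688 genes tested. Gtse1 alone had a LacZ mean below that level and passed through its GATA-4 arrays. After GATA-4 gene transfer all 36 had a higher mean signal than after LacZ transfer, where 47.4% of all genes tested did. The list was chosen with earlier results of these data known, so contrasts with all genes may rest partly on that choice. Among 121 other mitosis genes tested, 72.7% had a higher mean and 5.79% were called higher. Of the 36 genes 10, or 27.8%, rose past the test and none fell, beside 3.71% of all genes called higher and 2.66% lower. The 9 that did not depend on the filter in this way, out of 35, were led by Cdk1 and Mki67.

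The arrays measured RNA of the left ventricle, 3 days after gene transfer, in male Sprague-Dawley rats weighing 250 to 300 g. There were 10 samples, 5 in each group. The GATA-4 group received the gene of GATA-4, a transcription factor that binds GATA motifs in cardiac genes, and the LacZ group received the bacterial beta-galactosidase gene as a control. Both groups therefore share the transfer itself, and no untreated ventricle was analysed here. All sample titles name GATA-4, and the source label alone tells the groups apart. The labels and design text were the sources for the groups. The animals' age, the delivery vehicle, the promoter of the transferred genes and the cells they reached are not stated in those sources. The design text counts 5 samples a group and the labels name no animal, so the p-values measure the spread between these samples.

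Mitosis is run by the kinase Cdk1 together with its cyclins, which switch on at the end of DNA replication and are destroyed at anaphase. Most genes of this list are transcribed late in the cell cycle and are nearly silent in resting cells, so their transcripts in a tissue come mainly from cells that are cycling. In the adult rodent heart most cardiomyocytes have left the cycle, whereas endothelial cells, fibroblasts, smooth muscle cells and infiltrating leukocytes can divide. In RNA from whole tissue, more cycling cells and more RNA per cycling cell cannot be told apart, nor can the dividing cell type be read from these genes.

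Gata4 was higher in the group labelled for it at its brightest probe set. There its log2 signal was 11.28 to 11.59 after GATA-4 transfer and 10.49 to 10.82 after LacZ transfer (normalized). A second Gata4 probe set, too dim to be tested, read 4.41 to 6.21 and 3.19 to 5.63 in the same order, with overlap. Its mean was higher with GATA-4 by 0.81. Signal of the transferred gene was not told apart from that of the rat's own Gata4. The label of the tissue also held, since the 11 cardiomyocyte markers measured, such as Myh6 and Tnnt2, had LacZ means from 12.57 to 13.67. The 2%-trimmed mean of the deposited signals, which leaves out the extremes at each end, was 249.2 to 328.7 on 9 arrays and 142.3 on GATA-4 array 1, so the main counts below are also given without that array. The numbering of samples breaks before GATA-4 arrays 4 and 5, and no batch is labelled.

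The question put to the groups was whether transcripts of the dividing cell differ after the transfer. Signals were taken to log2 and quantile normalized, and each probe set was tested with limma, with p-values adjusted by the Benjamini-Hochberg method over all 18625 probe sets tested and a threshold of 0.05. Of the 36 mitosis genes 10, or 27.8%, rose, where 3.71% of all genes tested were called higher with GATA-4 and 2.66% lower. The differences ran from 0.18 (Kif2c and Kif23) to 1.72 (Gtse1) in log2 units, their median being 0.52, beside a median of -0.02 over all genes tested, 47.4% of which had a higher mean with GATA-4. Over probe sets, 5.3% of those tested were called in either direction. At an unadjusted p under 0.05, 25 of the 36 were higher, against 12.0% of all genes. All 5 GATA-4 arrays lay above all 5 LacZ arrays for 10 of the 36, 9 of them among the genes that rose, where the same held for 4.56% of all genes. Since the list was chosen with earlier results of these data known, such contrasts with all genes may rest partly on that choice.

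**Figure D1:**
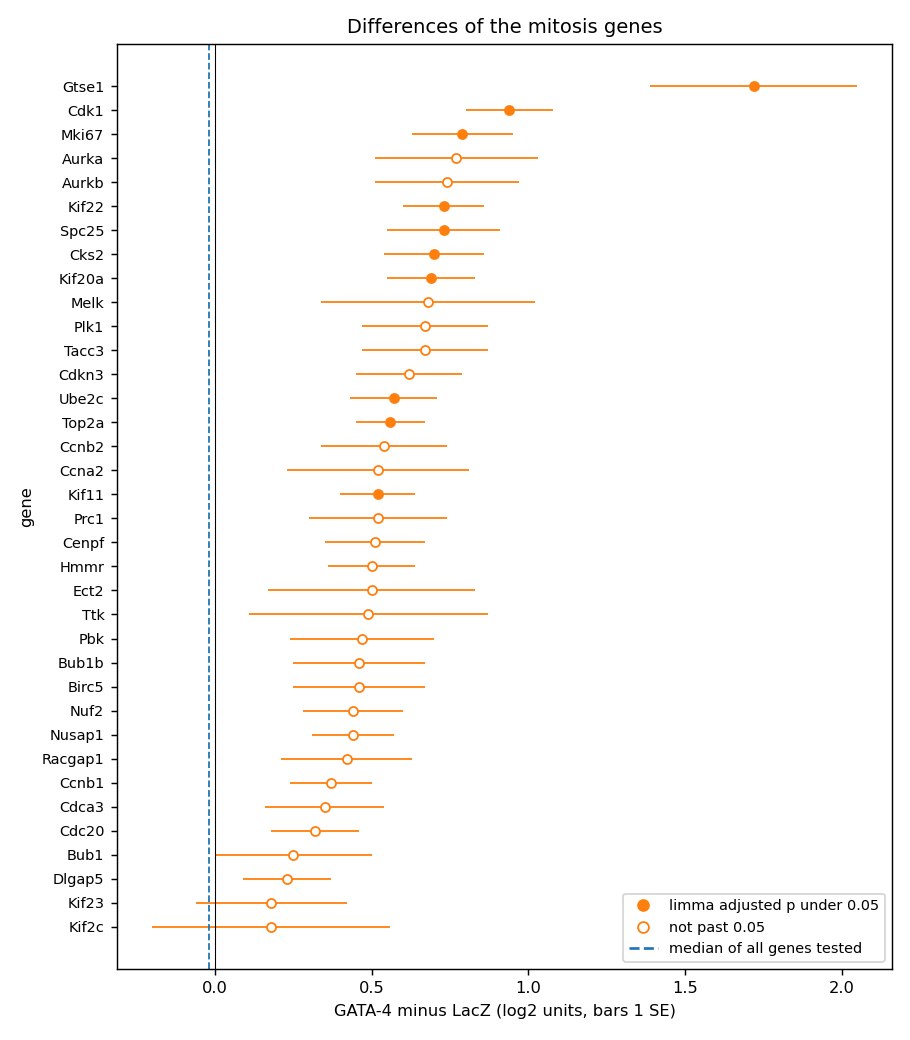
The difference between the GATA-4 and the LacZ mean in log2 units is plotted for each of 36 mitosis genes, with bars of 1 SE from limma; filled points passed an adjusted p of 0.05 and the dashed line is the median of all genes tested. All points lie to the right of 0, from 0.18 to 1.72, and 10 are filled.

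How many genes passed rested on single arrays, for the mitosis genes as for all genes. Without GATA-4 array 1 31 of the 36 rose, and the share of all genes called higher went up too, from 3.71% to 9.95%. Leaving out LacZ array 3 left 3 mitosis genes, with 0.944% of all genes called higher. Leaving out LacZ array 1, LacZ array 4 or GATA-4 array 3 left 5 each time, with 1.86%, 1.91% and 1.5% of all genes. Leaving out GATA-4 array 2 or 5 left 6, with 2.89% and 2.34% of all genes. Across all 10 such fits the median difference stayed between 0.44 and 0.65, while single genes moved more: Kif2c, at 0.18, ranged from -0.01 to 0.61, and Ect2, at 0.50, from 0.36 to 0.89. In the signals as deposited, with no normalization between arrays, the median was 0.53, limma called 0 of the 36 (0.0655% of all genes) and 6 had an unadjusted p under 0.05.

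Windows at the annotated starts of these genes are shown before their values. Transcription late in the cycle is known to depend on short elements near the start site. These are the cell cycle genes homology region, or CHR, which the DREAM and MuvB complexes bind, and the CCAAT box, which NF-Y binds. Windows of 300 bases, from 250 before to 50 after each annotated transcript start, were taken from RefSeq on the rat assembly GRCr8, which held 35 windows for 33 of the 39 genes, with 2 starts each for Cdkn3 and Kif2c. Both strands were searched for the CHR letters TTTGAA and TTCGAA and for CCAAT. Below are the 170 bases before the start of 5 genes that rose and hold matches (Cdk1, Cks2, Kif22, Mki67 and Top2a), of the mitotic cyclins Ccnb1 and Ccnb2, and of Gtse1, which had the largest difference and no match. Each reads 5′ to 3′ toward the start, with matches in capitals; ATTGG is CCAAT and TTCAAA is TTTGAA read on the other strand.
Cdk1, chr20:19265123-19265292, plus strand: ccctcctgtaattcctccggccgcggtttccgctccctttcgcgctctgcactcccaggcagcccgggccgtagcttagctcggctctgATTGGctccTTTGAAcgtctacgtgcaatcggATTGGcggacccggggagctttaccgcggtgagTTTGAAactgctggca
Cks2, chr17:13727520-13727689, minus strand: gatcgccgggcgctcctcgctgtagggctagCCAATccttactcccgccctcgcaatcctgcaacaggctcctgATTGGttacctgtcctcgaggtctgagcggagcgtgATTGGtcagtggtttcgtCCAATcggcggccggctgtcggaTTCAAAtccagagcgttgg
Kif22, chr1:191080879-191081048, minus strand: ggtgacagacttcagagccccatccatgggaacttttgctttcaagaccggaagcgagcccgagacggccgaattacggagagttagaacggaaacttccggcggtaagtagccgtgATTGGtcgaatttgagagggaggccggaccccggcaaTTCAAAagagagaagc
Mki67, chr1:199952594-199952763, minus strand: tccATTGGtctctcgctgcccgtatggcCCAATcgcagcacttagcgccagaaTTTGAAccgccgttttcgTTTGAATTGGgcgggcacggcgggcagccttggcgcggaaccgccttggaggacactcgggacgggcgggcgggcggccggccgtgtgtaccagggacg
Top2a, chr10:84473094-84473263, minus strand: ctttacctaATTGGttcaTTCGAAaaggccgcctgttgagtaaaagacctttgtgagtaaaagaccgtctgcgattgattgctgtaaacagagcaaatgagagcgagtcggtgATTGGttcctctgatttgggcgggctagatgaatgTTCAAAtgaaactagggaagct
Ccnb1, chr2:33655226-33655395, minus strand: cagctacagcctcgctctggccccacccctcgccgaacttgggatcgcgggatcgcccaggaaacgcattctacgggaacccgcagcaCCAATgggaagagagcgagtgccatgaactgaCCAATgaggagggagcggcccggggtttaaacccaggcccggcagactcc
Ccnb2, chr8:79981659-79981828, minus strand: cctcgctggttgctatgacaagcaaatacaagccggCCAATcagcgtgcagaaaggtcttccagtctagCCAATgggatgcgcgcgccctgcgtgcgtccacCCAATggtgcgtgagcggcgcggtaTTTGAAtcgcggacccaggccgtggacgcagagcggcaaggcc
Gtse1, chr7:118830003-118830172, plus strand: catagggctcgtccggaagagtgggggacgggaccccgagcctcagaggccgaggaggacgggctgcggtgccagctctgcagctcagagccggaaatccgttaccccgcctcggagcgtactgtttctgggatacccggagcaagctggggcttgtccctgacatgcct

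A CHR match was present in 24 of the 35 windows, or 68.6%, compared with 13.5% of the 9969 windows of genes tested on the array and 19.7% of all 33469 windows. CCAAT was present in 25, or 71.4%, compared with 37.5% of the windows of tested genes and 37.5% of all windows. At least 2 CCAAT matches stood in 57.1% of the windows (13.2% of those of tested genes), and a CHR together with a CCAAT in 57.1% (5.63% of those of tested genes). The CHR matches also had a usual place. A CHR centred within 60 bases of the start was found in 20 windows, or 57.1%, against 3.78% for tested genes, a distance chosen after the positions were seen. Of 61 CCAAT matches 60 lay before the start, as do 250 of the 300 bases of each window, and 44 lay between 30 and 150 bases before it. The 36 pairs of neighbouring CCAAT boxes stood 18 to 189 bases apart with a median of 43, and 18 of them 30 to 45 apart. Neither the places nor the spacings of CCAAT were counted in the windows of tested genes, so they are not shown to be particular to this list. The windows of Cdkn3 overlap and hold the same matches, which are therefore counted more than once in the numbers of this paragraph. The pair of Ccnb1 was 32 apart, those of Ccnb2 33 and 33, and those of Cdk1 32 and 129. In Mki67 a CHR and a CCAAT match share 1 base, the sole overlap among the windows.

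The 9 windows of genes that rose held a CHR in 6, or 66.7%, and a CCAAT in 8, or 88.9%, beside 68.6% and 71.4% of the whole list. No match was present in the windows of Gtse1, Aurka, Bub1 and Melk and in either window of Kif2c. The annotated starts were not checked, so a window without a match need not hold the promoter of its gene. A match is a description of letters, and whether any factor was bound there was not measured.

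**Figure D2:**
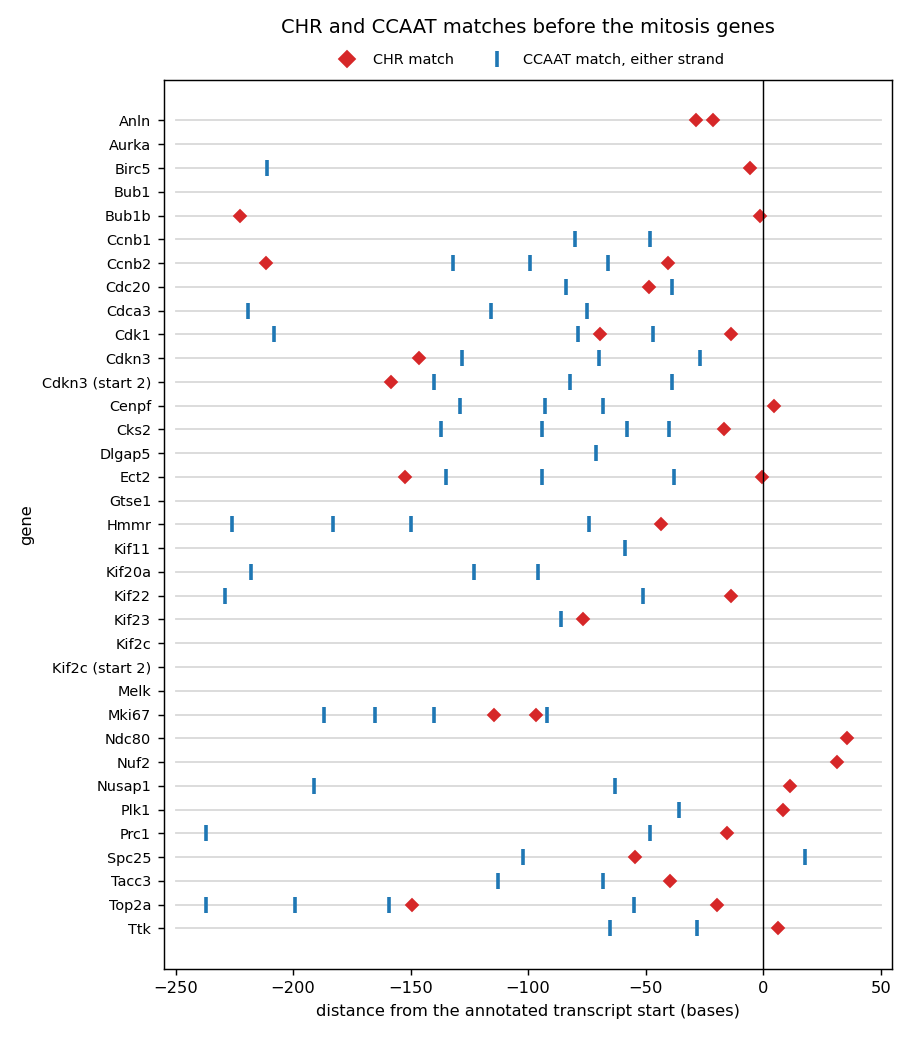
CHR matches (diamonds) and CCAAT matches on either strand (bars) are placed by their distance in bases from the annotated transcript start in 35 windows of 33 mitosis genes. Diamonds gather around the start and bars mostly between 30 and 150 bases before it; 6 windows are empty.

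The genes of mitotic entry were led by Cdk1 and its small partner Cks2, the pair of the 10 in this group that rose. Cdk1, the catalytic kinase, read 7.48, 7.60, 7.34, 7.43 and 7.73 on LacZ arrays 1 to 5 and 8.09, 8.66, 8.75, 8.22 and 8.57 on GATA-4 arrays 1 to 5 (normalized log2 signal, as for all levels below). No LacZ array reached the lowest GATA-4 array. The group values were 8.46 ± 0.29 against 7.51 ± 0.15 (SD, n = 5 each), a 1.92-fold rise with a difference of 0.94 (SE 0.14) and a limma adjusted p of 0.00661. It passed in all 10 fits lacking 1 array. Cks2, which binds Cdk1 and helps it reach its substrates, read 8.38, 8.35, 7.97, 8.11 and 8.51 on LacZ arrays 1 to 5 and 8.58, 9.19, 9.37, 8.75 and 8.95 on GATA-4 arrays 1 to 5. The groups did not overlap, though GATA-4 array 1, at 8.58, lay close to the highest LacZ array, at 8.51. Cks2 rose 1.63-fold, by 0.70 (SE 0.16), at a limma adjusted p of 0.0264, and passed in 4 of the 10 fits lacking 1 array.

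The mitotic cyclins were higher in mean without passing the test. Ccnb1, the main cyclin of Cdk1 at mitotic entry, read 7.09, 7.05, 7.00, 7.04 and 7.23 on LacZ arrays 1 to 5 and 7.09, 7.67, 7.66, 7.31 and 7.53 on GATA-4 arrays 1 to 5. GATA-4 arrays 2 to 5 lay above all LacZ arrays and array 1 within them, for a difference of 0.37 (SE 0.13) and a limma adjusted p of 0.12. Ccnb2, its Golgi-associated relative, differed by 0.54 (SE 0.20) with an adjusted p of 0.131. Ccna2, the cyclin of S phase and G2, read 6.86, 7.38, 6.76, 6.85 and 7.15 on LacZ arrays 1 to 5 and 6.23, 7.81, 7.98, 7.89 and 7.70 on GATA-4 arrays 1 to 5. Its 4 other GATA-4 arrays were all above the LacZ arrays, while array 1 was below every one of them, and the difference was 0.52 (SE 0.29), with an adjusted p of 0.303, and 0.85 without array 1.

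Among the other kinases and regulators of entry, Cdkn3, a phosphatase that acts on cyclin-dependent kinases, came nearest to the threshold among the mitosis genes that did not pass, at a difference of 0.62 (SE 0.17) and an adjusted p of 0.0529. Plk1, the Polo kinase of centrosome maturation and mitotic entry, read 6.62, 6.92, 5.93, 6.69 and 6.56 on LacZ arrays 1 to 5 and 6.65, 7.23, 7.63, 7.30 and 7.24 on GATA-4 arrays 1 to 5, a difference of 0.67 (SE 0.20) with an adjusted p of 0.0764. Aurka, the Aurora kinase of the spindle poles, differed by 0.77 (SE 0.26) with an adjusted p of 0.108, Melk, a kinase of proliferating cells, by 0.68 (SE 0.34) and Pbk, a mitotic kinase, by 0.47 (SE 0.23), the last pair with adjusted p-values of 0.266 and 0.25 in limma. On array 1 Melk read 4.99, below every LacZ array, and its difference was 1.07 without that array; the difference of Pbk was 0.28 without GATA-4 array 3. Without GATA-4 array 1, 9 of these 10 entry genes rose, where 9.95% of all genes were called higher; Pbk, at an adjusted p of 0.0749, did not.

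Spindle motors and microtubule proteins gave 4 of 11 genes that rose. Gtse1, a microtubule-binding protein of G2 and mitosis, had the largest difference of the list and read 4.66, 4.74, 3.78, 4.53 and 4.85 on LacZ arrays 1 to 5 and 5.08, 6.86, 6.61, 6.50 and 6.09 on GATA-4 arrays 1 to 5. The groups did not overlap, and array 1 lay nearer the LacZ arrays than the other GATA-4 arrays did. The difference was 1.72 (SE 0.33), or 3.29-fold, at a limma adjusted p of 0.0148, and it passed in all 10 fits lacking 1 array. Its LacZ mean of 4.51 is below the filter level of 5.17 and it was tested only because its GATA-4 mean, 6.23, is high; in the fit with no filter its adjusted p was 0.0284. The fold is approximate, since with 16 added to every signal the difference was 1.24. Without GATA-4 array 1 10 of the 11 spindle genes rose, where 9.95% of all genes were called higher.

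Kif22, the chromokinesin that pushes chromosome arms outward from the poles, read 6.97, 7.14, 7.23, 7.37 and 7.21 on LacZ arrays 1 to 5 and 8.02, 7.97, 8.12, 7.58 and 7.89 on GATA-4 arrays 1 to 5. All GATA-4 arrays, array 1 among the high ones, lay above the LacZ arrays. It rose 1.66-fold, by 0.73 (SE 0.13), with an adjusted p of 0.00995, and passed in all 10 fits lacking 1 array. Kif20a, a kinesin of the central spindle and cytokinesis, read 6.29, 6.76, 6.30, 6.24 and 6.70 on LacZ arrays 1 to 5 and 7.04, 7.08, 7.42, 7.04 and 7.15 on GATA-4 arrays 1 to 5, again with no overlap. Its 1.61-fold rise had an adjusted p of 0.0216 in limma and passed in 6 of the 10 fits. Kif11, the motor that slides the poles apart, read 6.57, 6.62, 6.45, 6.43 and 6.80 on LacZ arrays 1 to 5 and 6.99, 7.17, 7.20, 6.99 and 7.09 on GATA-4 arrays 1 to 5. This tight pair of groups gave a 1.43-fold rise of 0.52 (SE 0.12), an adjusted p of 0.0266 and a pass in 4 of the 10 fits.

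The other 7 spindle genes had differences from 0.18 to 0.67. Tacc3, which stabilises spindle fibres, differed by 0.67 (SE 0.20) with an adjusted p of 0.0724, Hmmr, a hyaluronan receptor that also sits on the spindle, by 0.50 (SE 0.14) with 0.0629, and Nusap1, a microtubule bundler, by 0.44 (SE 0.13) with 0.0701 in limma. Nusap1 was the gene with no overlap between groups that did not pass. Prc1, which bundles the antiparallel microtubules of the midzone, read 7.83, 8.00, 7.45, 7.90 and 7.81 on LacZ arrays 1 to 5 and 7.37, 8.48, 8.69, 8.53 and 8.52 on GATA-4 arrays 1 to 5, high on arrays 2 to 5 and lowest of all on array 1. Kif23 and Kif2c, a motor of the midzone and a microtubule depolymerase, each differed by 0.18 and were also lowest on array 1, where Kif2c read 4.49, the 4 remaining GATA-4 values being 6.40 to 6.92. For Kif23 arrays 2 to 5 lay above all LacZ arrays, and for Kif2c the lowest of them lay just under the highest LacZ array, at 6.47. Without array 1 their differences were 0.44 (Kif23) and 0.61 (Kif2c). Dlgap5, a spindle assembly factor, had a difference of 0.23, and 0.11 without array 1, with its highest value on array 1 (7.52) and 6.81 to 7.06 on arrays 2 to 5 beside 6.65 to 7.00 with LacZ.

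Of 8 kinetochore, checkpoint and chromosomal passenger genes 1 rose. Spc25, a subunit of the Ndc80 complex that grips microtubules at the kinetochore, read 6.83, 6.75, 6.34, 6.76 and 6.89 on LacZ arrays 1 to 5 and 7.04, 7.75, 7.84, 7.10 and 7.48 on GATA-4 arrays 1 to 5. The groups did not overlap, LacZ array 3 was the lowest of all, and the 1.65-fold rise of 0.73 (SE 0.18) had an adjusted p of 0.033 in limma and passed in 2 of the 10 fits lacking 1 array. Nuf2, its partner in that complex, differed by 0.44 (SE 0.16) with an adjusted p of 0.13.

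Aurkb, the kinase of the chromosomal passenger complex, read 6.99, 6.71, 6.73, 6.53 and 6.85 on LacZ arrays 1 to 5 and 6.64, 8.05, 7.92, 7.70 and 7.20 on GATA-4 arrays 1 to 5. Arrays 2 to 5 stood above all LacZ arrays and array 1 within them, and the difference of 0.74 (SE 0.23) had an adjusted p of 0.0825. Birc5, or survivin, which carries Aurkb to the centromere, differed by 0.46 (SE 0.21) at a limma adjusted p of 0.214. Cenpf, a large protein of the outer kinetochore, differed by 0.51 (SE 0.16) with an adjusted p of 0.0745. The checkpoint kinases Bub1 and Ttk and the checkpoint protein Bub1b had differences of 0.25, 0.49 and 0.46 and adjusted p-values of 0.587, 0.481 and 0.219. On array 1 Bub1 read 6.23 and Ttk 4.73, below every LacZ array, whereas arrays 2 to 5 read 7.36 to 7.78 and 6.39 to 6.89, above them all, and without array 1 the differences were 0.53 and 0.89. Without that array 6 of the 8 genes rose, where 9.95% of all genes were called higher.

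Genes of mitotic exit and cytokinesis held 1 rise among 5. Ube2c, the ubiquitin-conjugating enzyme with which the anaphase-promoting complex marks cyclin B for destruction, read 7.60, 7.88, 7.37, 7.47 and 7.97 on LacZ arrays 1 to 5 and 7.94, 8.37, 8.42, 8.12 and 8.30 on GATA-4 arrays 1 to 5. GATA-4 array 1 was just below the highest LacZ array and the other 4 were above it, for a 1.49-fold rise of 0.57 (SE 0.14) at a limma adjusted p of 0.0381 and a pass in 3 of the 10 fits lacking 1 array. Cdc20, the activator of that complex, differed by 0.32 (SE 0.14) and Cdca3, which takes part in the destruction of Wee1 at mitotic entry, by 0.35 (SE 0.19), with adjusted p-values of 0.194 and 0.298. Ect2 and Racgap1, the exchange factor and the scaffold that place the contractile ring, read 5.50, 7.61, 7.62, 7.12 and 7.40 and 6.88, 8.02, 8.08, 8.08 and 8.06 on GATA-4 arrays 1 to 5. LacZ arrays read 6.35 to 6.65 for Ect2 and 7.19 to 7.62 for Racgap1, so that arrays 2 to 5 were above and array 1 below them in both. Their differences were 0.50 (SE 0.33) and 0.42 (SE 0.21) and did not pass, with adjusted p-values of 0.402 and 0.265. Without array 1 they were 0.89 and 0.66 and that of Cdca3 was 0.53. Of the 5 genes 4 rose in that fit, beside 9.95% of all genes called higher.

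Both genes of the chromatin group rose. Mki67, the protein that coats mitotic chromosomes and serves as a marker of cycling cells, read 7.31, 7.70, 7.47, 7.58 and 7.43 on LacZ arrays 1 to 5 and 7.78, 8.14, 8.57, 8.57 and 8.39 on GATA-4 arrays 1 to 5. The groups did not overlap, and the 1.73-fold rise of 0.79 (SE 0.16) had an adjusted p of 0.0167. Top2a, the topoisomerase that untangles sister chromatids, read 7.43, 7.68, 7.45, 7.49 and 7.53 on LacZ arrays 1 to 5 and 7.91, 7.90, 8.18, 8.11 and 8.31 on GATA-4 arrays 1 to 5, again without overlap, and rose 1.48-fold at a limma adjusted p of 0.0181. Each passed in 9 of the 10 fits lacking 1 array. The plot of values by array shows these patterns side by side.

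**Figure D3:**
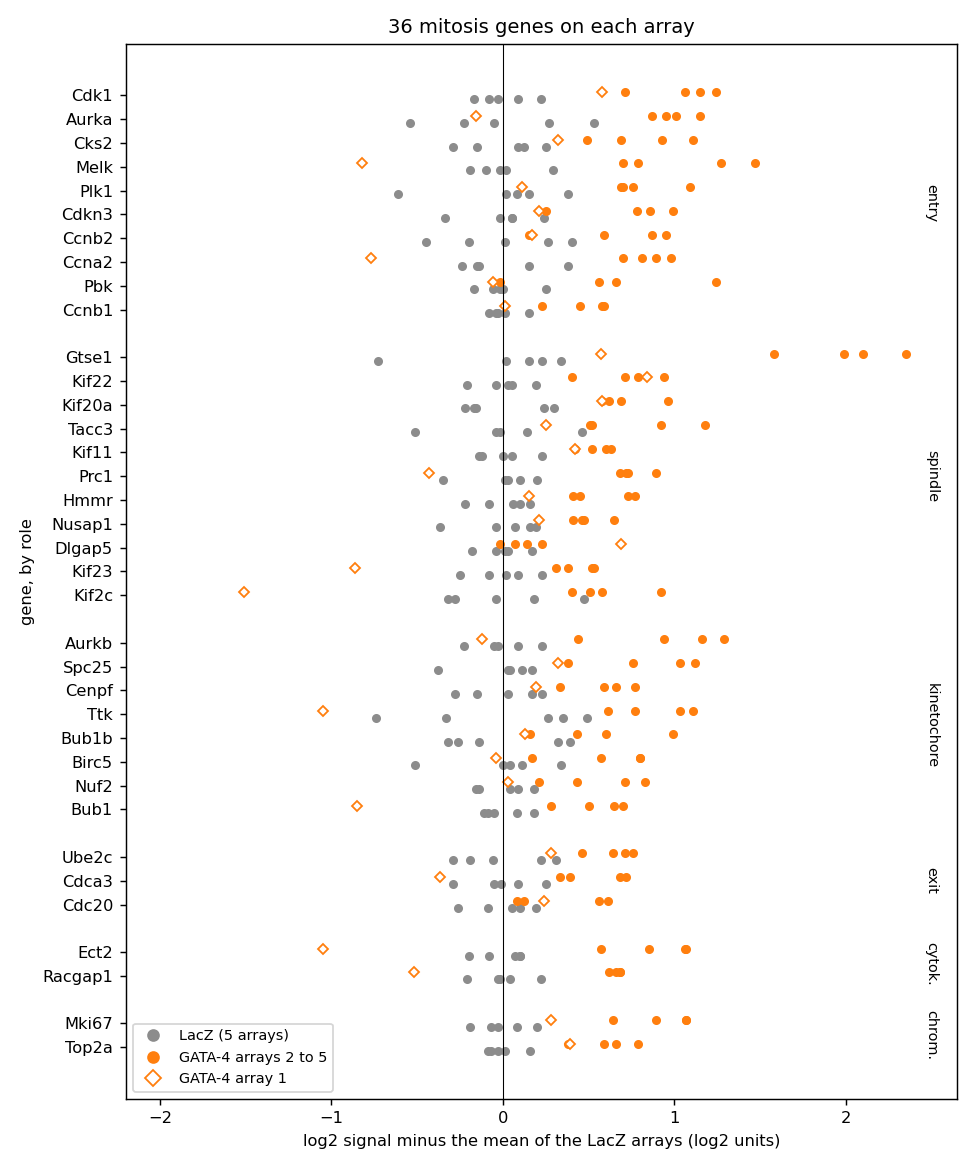
For each of 36 mitosis genes, ordered by role, the log2 signal of every array is plotted minus the mean of that gene's LacZ arrays. Grey points are the 5 LacZ arrays, filled orange points GATA-4 arrays 2 to 5 and open diamonds GATA-4 array 1, which lies with or below the grey points for most genes and above them for 12.

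GATA-4 array 1 set much of the spread in these genes. It was the lowest of the 5 GATA-4 arrays for 30 of the 36 genes, or 83.3%, compared with 35.5% of all genes tested. It lay above all LacZ arrays for 12 genes, within their range for 14 and below all of them for 10, or 27.8%, compared with 34.5% of all genes. Among the genes that rose it stood 0.28 to 0.84 above the LacZ mean, and among the rest from -1.52 to 0.70 about it. On arrays 2 to 5 alone, all 4 lay above every LacZ array for 29 genes, or 80.6%, where 9.71% of all genes did so, and the differences ran from 0.11 to 2.00 with a median of 0.65. GATA-4 array 3 held the highest value for 26 of the 36 genes and LacZ array 3 the lowest of its group for 22. No share over all genes was counted for array 3 of either group, nor for GATA-4 array 1 above or within the LacZ range. These counts are therefore not shown to be particular to the mitosis genes. The median standard deviation was 0.36 with GATA-4 and 0.20 with LacZ.

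A further 14 probe sets, of 11 of the genes, read the same transcripts at other places in the same samples, and 13 of them had a positive difference. The share over all probe sets was not counted, and 7 of the 14 were too dim to be tested. Of the 7 bright enough to be tested 2 were called: the dimmer probe set of Ccnb1 (0.51, SE 0.14, adjusted p = 0.0495 in limma), and a Cdc20 probe set (0.76, SE 0.20, adjusted p = 0.0444) of a design type that can match more than 1 transcript. The reverse held for Top2a, which rose at its brightest probe set but not at its dimmer one (0.54, SE 0.23, adjusted p = 0.193 in limma). For these genes the call thus depended on the probe set read. Some pairs disagreed on array 1: against the LacZ mean the brighter Racgap1 probe set read -0.52 and the dimmer 0.73, and for Top2a the brighter read 0.39 and the dimmer -0.35. The low values of array 1 therefore did not extend to every probe set of a gene.

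The rest of the mitotic machinery was read from a list of 154 further genes in 6 groups, of which 121 were tested. Of these 7 rose, or 5.79% beside 3.71% of all genes, none fell, and the median difference was 0.21. Without GATA-4 array 1 38 of 121 rose and 3 fell, where 9.95% of all genes were called higher. The calls named from this list differed in how far they rested on single arrays. Of the 10 fits lacking 1 array, Mybl2 passed in 10, Lmnb1 in 9 and Cdca8 in 5. Knstrn and Ncapd2 passed in 3, and Stmn1 and Ube2s in 2. The kinetochore and centromere group had 2 of 26 that rose and a median of 0.43. They were Cdca8, or borealin, a passenger complex subunit (1.68-fold, adjusted p = 0.0252), and Knstrn, a kinetochore and spindle protein (1.57-fold, adjusted p = 0.0321 in limma). Late genes outside the list had a median of 0.50 over 12, with a 1.60-fold rise of the nuclear lamina protein Lmnb1 (adjusted p = 0.0157). The spindle and centrosome group had a median of 0.31 over 22 genes, and the microtubule-destabilising Stmn1 rose 1.27-fold (adjusted p = 0.0378 in limma).

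The other 3 groups had medians nearer that of all genes. The checkpoint and anaphase-promoting complex group had a median of 0.03 over 24, and Ube2s, which extends ubiquitin chains for that complex, was its 1 rise (1.25-fold, adjusted p = 0.0455). The 14 core subunits of the anaphase-promoting complex, set apart after their values were seen, had a median of -0.08, from -0.33 to 0.27, and limma called 0 of them; Anapc13, Anapc16 and Anapc4, each lower in mean with GATA-4, had an unadjusted p under 0.05. Condensin and cohesin had a median of 0.02 over 17, with a 1.45-fold rise of the condensin subunit Ncapd2 (adjusted p = 0.0265 in limma). Regulators of entry had a median of 0.05 over 20. Among them Mybl2, the B-Myb factor that drives late cell cycle genes through MuvB, read 5.16, 5.43, 5.59, 5.52 and 4.90 with LacZ and 6.16, 6.01, 6.42, 6.38 and 6.49 with GATA-4 (arrays 1 to 5). It rose 1.96-fold with an adjusted p of 0.0137 in limma. Foxm1, its partner in late transcription, picked out after its values were seen, was too dim to be tested and read 5.29 ± 1.13 after GATA-4 and 4.58 ± 0.95 after LacZ transfer (SD, n = 5; exact two-sided permutation p = 0.333). Foxm1 read 3.36 on GATA-4 array 1, 5.28 to 6.17 on arrays 2 to 5 and 3.0 to 5.54 with LacZ. Over GATA-4 arrays 2 to 5 its difference was 1.19.

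A separate list of G1/S and DNA replication genes had 3 of 42 that rose and a median of 0.25, with Mcm5 and Mcm2, subunits of the replicative helicase, up 1.43-fold and 1.42-fold and the G1 cyclin Ccne1 1.73-fold (limma adjusted p from 0.0241 to 0.0452). In the 10 fits lacking 1 array Mcm5 passed in 4, Mcm2 in 2 and Ccne1 in 1. Without GATA-4 array 1 18 of the 42 rose, where 9.95% of all genes were called higher. Of 10 inhibitors of division 1 rose, Cdkn1a, or p21, by 1.46-fold with an adjusted p of 0.0315 in limma and a pass in 2 of the 10 fits, and the list's median was 0.05. Without GATA-4 array 1 2 of the 10 rose. Whether the mitosis genes and these lists differ was not tested.

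**Figure D4:**
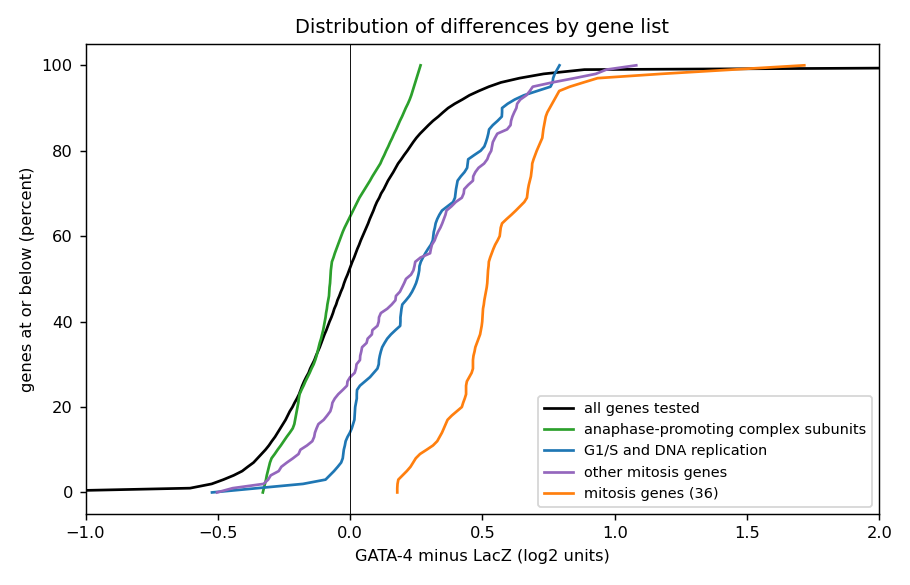
Each line gives the percent of a gene list (vertical axis) whose GATA-4 minus LacZ difference in log2 units (horizontal axis) is at or below a value; the axis ends at 2 and the all-gene line runs on to 4.06. The 36 mitosis genes lie entirely to the right of 0, the other mitosis and G1/S lists between them and all genes, and the 14 anaphase-promoting complex subunits near all genes.

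In the fit of all 10 arrays some markers of macrophages and neutrophils rose, and none of T and NK cells or B cells did. Of 14 macrophage markers 8 rose, among them Tyrobp (2.35-fold) and Csf1r (1.45-fold), and of 5 neutrophil markers 3 rose, among them Lcn2 (2.49-fold) and Csf3r (1.94-fold), where the 11 adjusted p-values by limma lay between 0.00074 and 0.0392. Tyrobp, Csf1r and Lcn2 passed in all 10 fits lacking 1 array and Csf3r in 2. Without GATA-4 array 1 10 macrophage and 5 neutrophil markers rose, where 9.95% of all genes were called higher. Against the LacZ means, the median over the macrophage list was -0.17 to 0.09 on the LacZ arrays, 0.27 on GATA-4 array 1 and 0.51 to 0.61 on arrays 2 to 5 of that group. That of the mitosis genes was -0.17 to 0.16, 0.14 and 0.44 to 0.94 in the same order. For neutrophil markers the values were -0.66 to 1.06, 0.17 and 1.50 to 2.12. Of 10 T and NK cell markers tested none passed in limma, 3 had an unadjusted p under 0.05, and the list's median difference was 0.36; without GATA-4 array 1 3 of 11 rose. The T cell receptor subunit gene Cd3d and the B cell genes Ms4a1 and Cd79b were too dim to be tested, with LacZ means of 5.15, 4.79 and 1.77.

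Apart from the mesothelial list, markers of the resident cells of the heart had medians near 0. Fibroblast markers had a median difference of 0.05 with 1 rise in 10, Fn1 (1.62-fold, adjusted p = 0.00457 in limma), and 4 at an unadjusted p under 0.05, which were Fn1, Col1a1, Col1a2 and Thy1, all higher in mean. Of the 10 markers 7 were higher in mean, while Tcf21, Lum and Pdgfra were lower, at -0.32, -0.25 and -0.21, and were not called. Without GATA-4 array 1 3 of the 10 rose, beside 9.95% of all genes called higher. The median was -0.07 for endothelial and 0.06 for smooth muscle and pericyte markers. In limma 0 of 9 endothelial and 0 of 8 smooth muscle and pericyte markers were called, with 3 and 0 at an unadjusted p under 0.05; without GATA-4 array 1 2 endothelial markers fell. Cardiomyocyte markers had a median of -0.03, and 1 of 11, the giant sarcomere protein Ttn, fell by 0.27 on the log2 scale (adjusted p = 0.00957 in limma). Of 7 mesothelial markers on the array 4, Msln, Upk1b, Krt19 and Krt8, were too dim to be tested and were higher in mean, by 0.34 to 1.12. The other 3 were bright enough to be tested, with a median difference of -0.22. Wt1 and Lrrn4 were lower in mean, at -0.51 and -0.22, and were not called, and 1, Krt18, rose. Its LacZ mean of 3.54 is below the filter level, so that it was tested through its GATA-4 mean of 7.28, and its log2 difference was 3.74, or 2.51 with 16 added to every signal. Of 3 B cell markers 1 was tested and was not called. The part of any cell type in the rise of the mitosis genes was not tested.

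**Figure D5:**
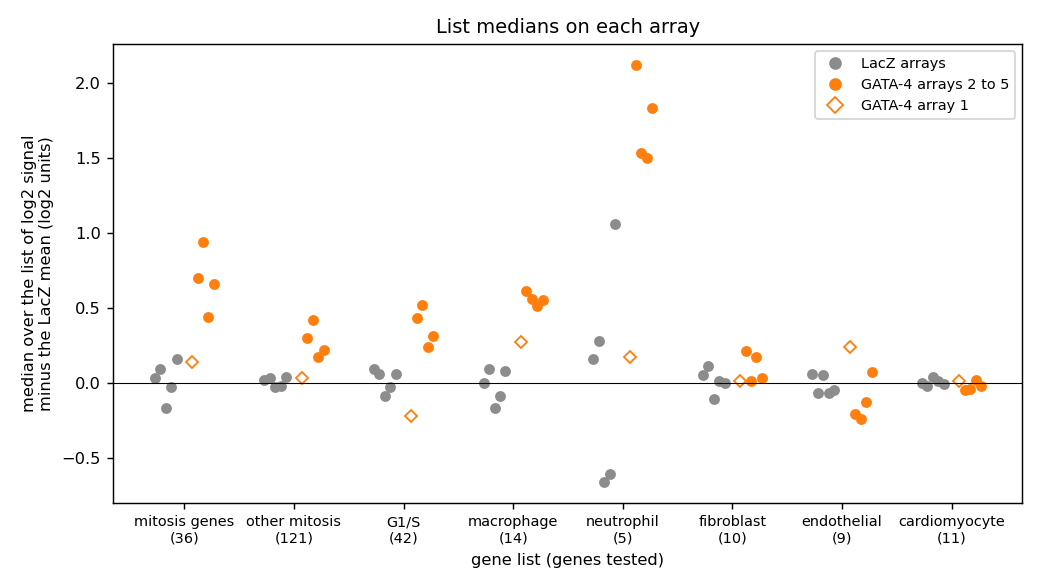
For 8 gene lists the median over the list of log2 signal minus each gene's LacZ mean is plotted for every array; grey points are LacZ arrays, filled orange points GATA-4 arrays 2 to 5 and open diamonds GATA-4 array 1. For the mitosis genes arrays 2 to 5 lie at 0.44 to 0.94, above the LacZ arrays, and array 1 at 0.14 among them; cardiomyocyte and fibroblast lists stay near 0.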

How the data were processed

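RNA of 10 rat left ventricles was hybridised to Affymetrix rat expression arrays. The deposited values are 1 linear signal intensity per probe set and array, made by the authors with GCOS, Affymetrix's scanner software, per the submitters' processing notes; its version, scaling and algorithm were not given in the sources used here. Of 31042 probe sets that are not controls, the platform annotation gives 1 gene to 20826, several to 436 and none to 9780, and the gene IDs of 20758 of the 20826 matched RefSeq (GRCr8), which updated the symbols.

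Intensities were taken to log2 and quantile normalized, and normalized values below 0 were then set to 0. Probe sets with a mean above the 40th percentile were fitted with limma 3.58.1 (R 4.3.3) as GATA-4 minus LacZ, with an intensity trend and a two-sided Benjamini-Hochberg adjusted p under 0.05 over all of them. Errors are SD over 5 arrays or SE of the fit. A gene's level was taken from its brightest probe set. The fit was tested on simulated data.

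Mitosis genes and lists were chosen with earlier results of these data known. Named are all mitosis genes, Gata4, from each other cell cycle list at most 4 and from each cell type list at most 2 called genes with the smallest p, and defining markers; other names were chosen after their values were seen. Alternatives changed the normalization, offset, floor, filter, variance model, array weights and arrays included. The number of arrays limits the precision.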

Additional observations from a re-analysis of the deposited data

Results flagged for a closer look

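For 9 of the mitosis genes GATA-4 array 1 stood far below the other 4 arrays of its group by Dixon's gap criterion for 5 samples. Its log2 signal was 6.23 for Ccna2 (others 7.70 to 7.98), 5.71 for Aurka (6.74 to 7.02), 5.88 for Kif23 (7.05 to 7.27), 4.49 for Kif2c (6.40 to 6.92) and 7.37 for Prc1 (8.48 to 8.69). It was 6.23 for Bub1 (7.36 to 7.78), 4.73 for Ttk (6.39 to 6.89), 5.50 for Ect2 (7.12 to 7.62) and 6.88 for Racgap1 (8.02 to 8.08). The same array had the lowest trimmed mean signal of the 10, at 142.3, and the part of that in these values was not tested.

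Kif20a was high on GATA-4 array 3, at 7.42 against 7.04 to 7.15 on the others, and Spc25 was low on LacZ array 3, at 6.34 against 6.75 to 6.89. In all 11 of 74 groups of 5 arrays stood out in this way, where chance gives about 1 in 20; genes that are transcribed together are not independent.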

How the results depend on the processing

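The median difference of the mitosis genes stayed between 0.44 and 0.66 under all 22 alternatives, by less than the spread between arrays. Their count of calls was 10 of 36, with 988 probe sets called in all. It was 0 (9 probe sets) in the signals as deposited, 31 (2890) with array weights, 31 (2616) with median centring and no GATA-4 array 1, and 2 (201) without GATA-4 arrays 4 and 5. Leaving out 1 array gave 3 to 31 mitosis genes and 174 to 2849 probe sets. With no filter 619 probe sets were called and with no intensity trend 539, while the mitosis genes called were 7 and 8. The causes were not tested. Of 775 pairs of a mitosis gene and an alternative, 647 kept direction and side of the threshold, 58 lost the call, 67 gained it and 3 reversed: Kif2c at -0.01 without GATA-4 array 3 and -0.03 without GATA-4 arrays 4 and 5, and Kif23 at -0.01 without those arrays. Kif2c was 0.61 without GATA-4 array 1. Cdk1, Kif22 and Gtse1 passed in all 10 fits that left out 1 array. No paired analysis was possible because the labels give the groups no shared replicate numbers. No mitosis gene was below the filter, so the separate test of dim ones was not run. Dim signals such as that of Gtse1 limit how well a fold is known.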

Other observations

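Of the other mitosis genes 14 were too dim to be tested across all probe sets. Their differences ran from -0.57 (Sgo2) to 2.68 (Kif18b) with a median of 0.62, 11 higher and 3 lower in mean with GATA-4. Kif18b, a kinesin that shortens astral microtubules, read 3.32 with LacZ and 6.00 with GATA-4 (means of log2 signal, n = 5 each), and Cenpe, a kinetochore motor, 2.94 and 5.14. These were picked out after their values were seen, as the largest of the 14, so no test is given. Others were nearly level, such as Cenpa at 0.09, Kif18a at 0.06, Troap at -0.08 and Sass6 at -0.12. At signals this low the size of a difference is poorly known.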
